A study of Canis lupus familiaris with 29 samples.

Results

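The respiratory chain and the ATP synthase were followed as messenger RNA in MDCKII cells. This epithelial line from dog kidney forms flat polarised sheets on filters and hollow cysts in a gel of basement membrane. Members were chosen by name: nuclear genes for the subunits of complexes I to V (names that begin with NDUFA, NDUFB, NDUFC, NDUFS or NDUFV and a number, with COX4 to COX8, UQCR or ATP5, and SDHA to SDHD), and the genes of the mitochondrial genome (ND1, ND2, ND3, ND4, ND4L, ND6, CYTB, COX1, COX2, MT-CO3, ATP6 and ATP8). Of 24223 genes in the tables, 62 were members, 50 of them nuclear and 12 mitochondrial. COX1 and COX2 are here the cytochrome c oxidase genes of the mitochondrial genome, not the cyclooxygenases of the same short name.

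The chain passes electrons from NADH (complex I) and succinate (complex II) through ubiquinone to complex III, then through cytochrome c to complex IV, where oxygen is reduced. Complexes I, III and IV pump protons, and complex V uses the gradient to make ATP. Complexes I, III, IV and V are built from subunits of both genomes, whereas complex II is entirely nuclear. Mitochondrial genes are transcribed as long precursors that are cut into single messengers. In mammals ND1 and ND2 come first on the heavy strand, ahead of COX1, COX2, ATP8 and ATP6, COX3, ND3, ND4L and ND4, and CYTB comes last, while ND6 is read from the other strand. Kidney tubule epithelium is rich in mitochondria.

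The study compared 13 groups in 29 RNA-seq libraries. DENND5A-KD cells (lines 1 and 2) were sampled at seeding (day 0) and after 4 and 7 days on transwell filters, and AVL9-KD cells (lines 1 and 4) at day 0 and after 4 filter days, with 2 libraries in each group. Wild type cells were sampled at day 0 (n = 4), in 3D culture on matrigel at 24 h and at days 3, 5 and 8 (n = 2 each) and day 14 (n = 1), and in 2D culture on filters, past confluence, at days 4 and 11 (n = 3 each). DENND5A and AVL9 encode DENN domain proteins, regulators of Rab GTPases. The labels do not say whether a knockdown line number marks a clone or a hairpin, no control line handled in the same way was analysed here, and nothing states that the replicates were grown apart. The p-values then reflect sample-to-sample spread that may be technical in part. The 6 wild type comparisons with day 0, and both knockdown comparisons at day 0, share the 4 day 0 libraries.

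Values are FPKM, which are scaled by gene length and by each library's own total. The number of reads is unknown. Depth estimated from the spacing of the lowest values ranged from 0.454 to 1.67 times that of day 0 replicate 2, and 10163 to 10903 genes reached 1 FPKM per library. In wild type cells, the day 14 library and replicate 1 of 4 groups (day 0, days 3 and 8 in 3D, day 4 on filters) stood apart, at relative depths of 0.454 to 0.727, against 0.824 to 1.10 in the 14 other wild type libraries, so results that rest on them are given with and without them. The targeted messengers were low in their own lines: DENND5A averaged 1.95 ± 0.0975 FPKM in DENND5A-KD cells and 5.62 ± 0.895 FPKM in wild type cells at day 0 (SD, n = 2 and n = 4), and AVL9 averaged 6.46 ± 1.07 FPKM in AVL9-KD cells and 23.0 ± 0.752 FPKM in wild type cells. Kidney epithelial markers were present in every library (PAX8 from 19.5 to 72.1 FPKM, EPCAM from 225 to 379 FPKM), while CDH16, another tubule marker, went as low as 0.0345 FPKM. The markers of fibroblasts, leukocytes and endothelium stayed at or under 0.836 FPKM, and CD3E was listed at 0 in all libraries. In bulk RNA, fewer cells of a type and less RNA per cell cannot be told apart.

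Of the 62 members, 57 reached 1 FPKM in at least 2 libraries and were tested: 45 nuclear and all 12 mitochondrial genes. The 5 that did not were NDUFA4L2 (at most 0.463 FPKM), COX4I2 (at most 0.667 FPKM), COX6A2, NDUFC1 (0 in all 29 libraries) and ATP5B, which encodes the catalytic beta subunit of ATP synthase and was listed at 0 in 28 libraries and at 0.0313 FPKM in the other. In tables without read counts a 0 can be a failed estimate, and ATP5B is a gene that respiring cells use, so a value of 0 or near 0 here, also for the genes named next, is not read as absent expression. COX6A2, COX7A1 and COX4I2 are the tissue-restricted versions of common complex IV subunits. COX7A1, the heart and muscle version, passed the filter but did not exceed 1.47 FPKM, against group means of 6.88 to 19.5 FPKM for its widely expressed partner COX7A2. COX4I1, the common partner of COX4I2, averaged 116 to 232 FPKM in the groups. Among the tested nuclear genes, mean levels over all 29 libraries ran from 0.244 FPKM (COX7A1) to 212 FPKM (COX5B). ATP5S and ATP5SL carry matching names but encode no structural subunit of the synthase. MT-ND5, spelled so in the tables, was outside the naming rule and is not counted.

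The 12 mitochondrial genes held 8.87% to 27.8% of all FPKM in a library, with a median of 14.6%, and the nuclear members 0.641% to 1.14%. Mean log2(FPKM + 1) over the 12 mitochondrial genes was 11.50 ± 0.20 in wild type cells at day 0, 11.45 ± 0.27 after 24 h in 3D, 12.22 ± 0.52 at day 3, 11.39 ± 0.55 at day 5, 12.16 ± 0.32 at day 8 and 11.42 at day 14. On filters the same mean was 11.15 ± 0.17 at day 4 and 10.77 ± 0.30 at day 11. The mean over the 45 nuclear genes was 5.26 ± 0.11 at day 0, then 5.40 ± 0.16, 5.72 ± 0.14, 5.52 ± 0.39, 5.41 ± 0.02 and 5.46 at the 5 times in 3D, and 4.96 ± 0.13 and 5.04 ± 0.04 at days 4 and 11 on filters (log2 levels, SD).

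By group mean, the mitochondrial set stood further above the nuclear set at 3D day 8, and less far above it at filter day 11, than at day 0, on the scale as deposited. With quantile normalization the day 8 difference had the other sign (-0.33 in place of 0.52). That normalization gives every library the same set of values, so it takes out much of any shared rise of the highest genes, where the mitochondrial ones lie. Without that normalization, the mitochondrial mean exceeded the nuclear mean by 6.24 ± 0.22 at day 0, 6.05 ± 0.11 at 24 h, 6.50 ± 0.66 at day 3, 5.86 ± 0.95 at day 5, 6.76 ± 0.34 at day 8 and 5.96 at day 14. It was 6.19 ± 0.21 on filters at day 4 and 5.73 ± 0.33 at day 11. Among the replicated wild type groups, the day 8 and filter day 11 gaps alone differed from day 0 by more than the SD of either group (0.52 and -0.51), and these set means carry no test. The day 3 gap was 6.97 in replicate 1, the library that stood apart, and 6.04 in replicate 2, so the difference from day 0 was 0.26 with both libraries and -0.16 without the 5 libraries. At day 5 the gap was 5.20 in replicate 2 and 6.53 in replicate 3. The day 8 gap was 6.99 in replicate 1, which stood apart, and 6.52 in replicate 2, against 5.94 to 6.43 at day 0. At filter day 11 the gap was 5.61 and 5.47 in replicates 1 and 2, and 6.10, within the day 0 range, in replicate 3. Replicates 1 and 2 of filter day 11 are among the 4 libraries described below as low in ATP8 and COX7C.

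**Figure D1:**
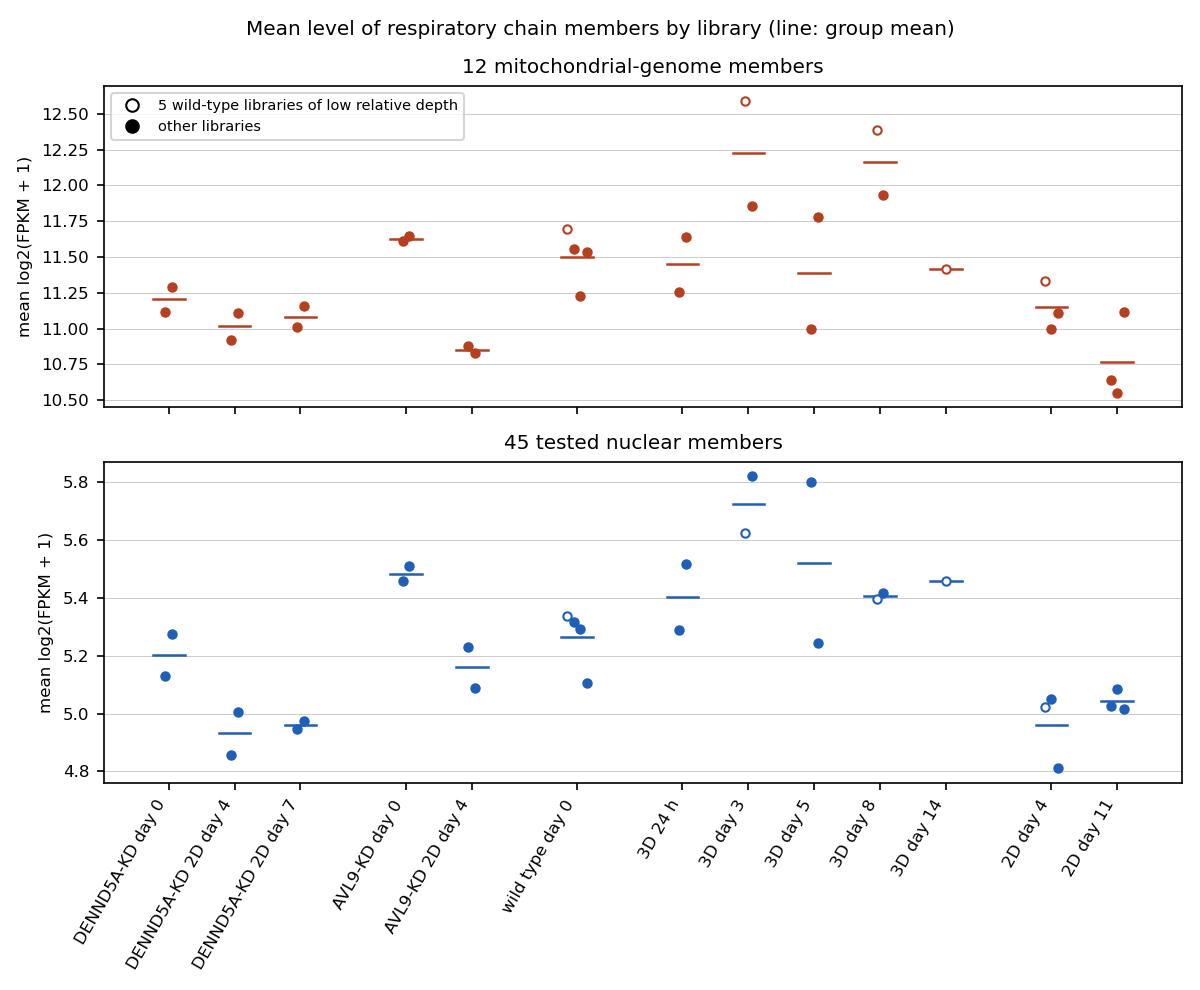
Mean log2(FPKM + 1) of the 12 mitochondrial members and the 45 tested nuclear members (1 panel each) in each of the 29 libraries, by group. A line marks each group's mean, and open points mark the 5 wild type libraries that stood apart in depth. AVL9-KD day 0 line 1 and filter day 4 line 4, at relative depths of 0.727 and 0.536, were as low but have filled points. The 2D groups sit lowest among wild type groups in both panels, and the 2 libraries of 3D day 5 lie far apart in both.

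After 24 h in 3D, no member passed the test against day 0 at an adjusted p under 0.05 (limma over 11774 genes, Benjamini-Hochberg), while 1.19% of all genes did. At an unadjusted p under 0.05 there were 4 of 57 members and 1600 of all 11774 genes. The median log2 difference from day 0 was 0.04 for the mitochondrial, 0.14 for the nuclear members and 0.06 for all genes.

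By day 3 in 3D, 25 of the 45 nuclear members had risen and 1 had fallen, where 28% of all genes rose and 23.1% fell. Their median log2 difference from day 0 was 0.49, against 0.05 for all genes. Of the 12 mitochondrial genes 7 rose and none fell, with a median of 0.77. At day 5 the counts were 20 higher and 3 lower nuclear members, with a median of 0.40, and 2 higher and 3 lower mitochondrial genes, with a median of 0.05; 26.4% of all genes rose and 31.2% fell. At day 8, 16 nuclear members rose and 7 fell, with a median of 0.13, and 7 mitochondrial genes rose and none fell, with a median of 0.69; 24.7% of all genes rose and 38% fell, and the median of all genes was -0.13.

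These 3D counts rested partly on single libraries. Without day 3 replicate 1, 3 mitochondrial genes passed at day 3, and without day 8 replicate 1, 4 mitochondrial and 9 nuclear members rose at day 8. Leaving out day 0 replicate 4 left 10 nuclear members higher at day 8. At day 5, leaving out replicate 2 left 5 nuclear members higher and 5 lower, whereas leaving out replicate 3 gave 25 higher and 2 lower. With quantile normalization, which forces every library to the same distribution, no mitochondrial gene passed at days 3 or 8. The nuclear counts were then 31 higher and 3 lower at day 3 and 24 higher and 5 lower at day 8. The mitochondrial genes lie among the highest values, so this normalization takes out much of any rise they share. It therefore cannot decide whether they rose together. Scaling on genes outside the mitochondrial genome kept 97 of 106 calls on named members over all comparisons and lost 9. That count pools nuclear and mitochondrial members, so it does not show how the mitochondrial calls of days 3 and 8 fared.

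Among the mitochondrial genes, COX1, the catalytic core of cytochrome c oxidase, had the largest rise. In wild type cells it stood at 6821, 6922, 5269 and 6797 FPKM at day 0 and at 5411 and 6768 FPKM at 24 h, then at 18519 and 13013 FPKM at day 3, 9114 and 15346 FPKM at day 5, 20311 and 14820 FPKM at day 8 and 9905 FPKM at day 14. Every library from day 3 on lay above all 4 day 0 libraries. The log2 difference from day 0 was 1.28 ± 0.23 (SE) at day 3 (adjusted p = 0.000142), 0.88 at day 5 (adjusted p = 0.00282) and 1.44 at day 8 (adjusted p = 2.14e-05; limma). Its rise at day 5 lost the call without replicate 3 (0.51, adjusted p = 0.106).

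The other complex IV genes of the mitochondrial genome moved the same way on days 3 and 8, except that quantile normalization turned COX2 negative on both days and MT-CO3 at day 8. COX2, which takes electrons from cytochrome c, rose by 1.01 at day 3 and 1.08 at day 8, and MT-CO3 rose by 1.11 and 0.89 (log2). MT-CO3 read 15840 and 10910 FPKM at day 3 and 12904 and 9884 FPKM at day 8, and its 4 day 0 libraries read 5058 to 6590 FPKM, with no overlap. ATP6, the proton channel subunit of ATP synthase, rose by 0.99 and 0.84, and CYTB, the complex III subunit, by 0.96 and 0.60, the last with overlapping groups, but with quantile normalization ATP6 was negative on both days and CYTB at day 8. ND4 of complex I rose by 0.89 and 0.83. Without replicate 1 of their own 3D group, the calls of ATP6, CYTB, ND4 and ND3 were lost on both days.

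ND1 and ND2, membrane subunits of complex I, did not follow COX1. ND1 was at 2945, 2704, 2225 and 2593 FPKM at day 0, 2753 and 2967 FPKM at 24 h, 4068 and 2394 FPKM at day 3, 1395 and 1965 FPKM at day 5, 2973 and 2092 FPKM at day 8 and 1354 FPKM at day 14. On filters it was at 1245, 1016 and 1035 FPKM on day 4 and at 886, 877 and 1140 FPKM on day 11. At day 3, 1 library lay above the day 0 range and 1 within it, at day 8, 1 lay above and 1 below, and the day 5, day 14 and all filter libraries lay below it. The log2 difference of ND1 from day 0 was -0.65 ± 0.20 at day 5 (adjusted p = 0.0094), -1.25 ± 0.18 at filter day 4 (adjusted p = 5.47e-06) and -1.44 ± 0.18 at filter day 11 (adjusted p = 1.47e-06; limma, SE). ND2 fell by 0.86, 1.16 and 1.45 in the same comparisons. At day 5 both calls were lost without replicate 2 (ND1 -0.41, adjusted p = 0.189; ND2 -0.44, adjusted p = 0.198).

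The level of COX1 relative to ND1 changed with time in culture, in 3D and on filters alike. In wild type cells the ratio was 2.47 ± 0.15 at day 0 and 2.12 ± 0.22 after 24 h in 3D, then 4.99 ± 0.62, 7.17 ± 0.90 and 6.96 ± 0.18 at days 3, 5 and 8 and 7.31 at day 14 (ratio of FPKM, SD). On filters it was 8.57 ± 0.15 at day 4 and 7.33 ± 0.06 at day 11. In DENND5A-KD cells it was 3.42 ± 0.02 at day 0, 7.73 ± 1.09 at filter day 4 and 9.23 ± 0.42 at filter day 7, and in AVL9-KD cells 2.60 ± 0.35 at day 0 and 11.3 ± 0.53 at filter day 4. The libraries at day 0 and 24 h did not overlap with the later ones. This ratio was chosen after the values were seen and is given without a test. As both genes are read within 1 library, it does not depend on the library's scaling.

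**Figure D2:**
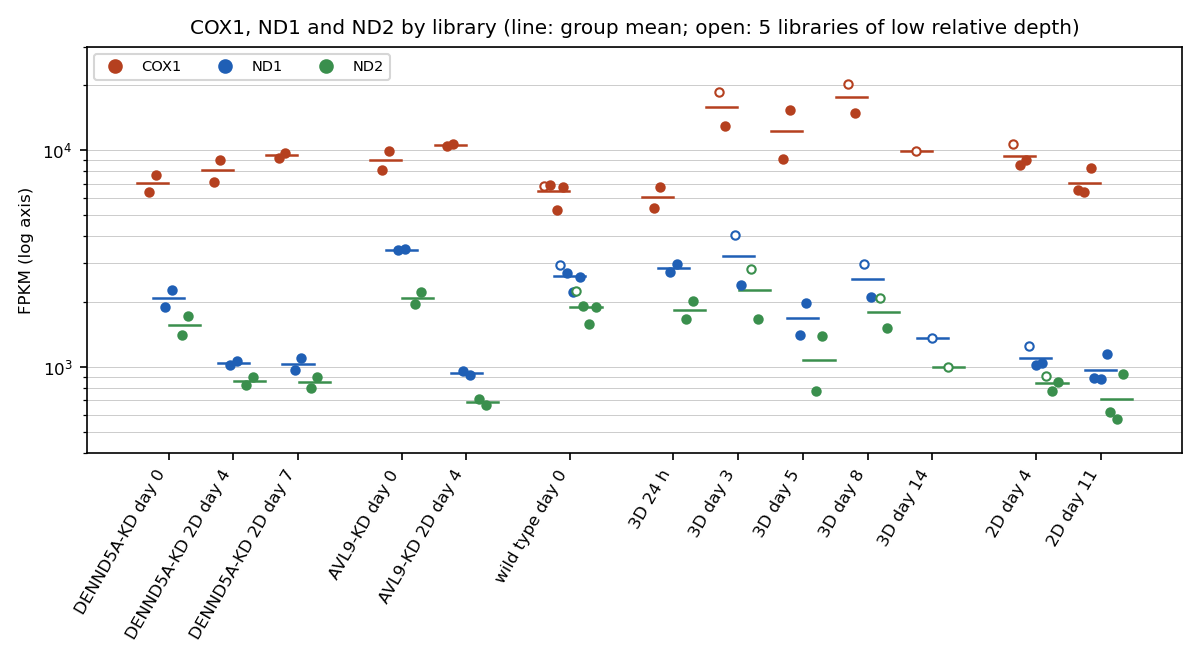
FPKM of COX1, ND1 and ND2 in each library, by group, on a log axis. COX1 lies above ND1 in all 29 libraries, and the distance widens from day 0 and 24 h to the later 3D and filter groups.

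The remaining mitochondrial genes varied more. ND3, a complex I subunit, read 6094 and 4125 FPKM at day 3 and 6018 and 4642 FPKM at day 8, and its day 0 libraries read 3134 to 4248 FPKM. Its log2 difference from day 0 was 0.50 at day 3 (adjusted p = 0.0445, with overlapping groups, and negative with quantile normalization) and 0.57 at day 8 (adjusted p = 0.0176; limma). ND6, the gene of the other strand, averaged 165 to 338 FPKM in the groups and passed none of the comparisons with day 0. ND4L passed no 3D comparison with day 0 (log2 0.65 at day 3, adjusted p = 0.077; limma). ND4L overlaps ND4, and ATP8 overlaps ATP6, so their reads can be shared. Use of strand in the counting is not given in the sources used here, and nuclear copies of mitochondrial genes can take reads too.

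ATP8, a small accessory subunit of ATP synthase, was the least even member across replicates. Its values were 17616, 10784, 9491 and 12036 FPKM at day 0, 2696 and 10325 FPKM at 24 h, 30249 and 9227 FPKM at day 3, 1288 and 9489 FPKM at day 5, and 26845 and 14878 FPKM at day 8. On filters it had 12908, 7952 and 9413 FPKM at day 4 and 2417, 1579 and 9797 FPKM at day 11. The lowest wild type libraries were 24 h replicate 2, day 5 replicate 2 and filter day 11 replicates 1 and 2. The ratio of ATP8 to ATP6 was 1.72 ± 0.28 at day 0, but 0.20 and 0.92 in the 2 day 5 libraries.

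COX7C, a small nuclear subunit of complex IV, was lowest in the same 4 libraries. It read 26.9, 20.0, 20.4 and 16.9 FPKM at day 0, 4.99 and 17.9 FPKM at 24 h, 5.35 and 13.3 FPKM at day 5, and 7.72, 5.32 and 14.0 FPKM at filter day 11. In the day 3 and day 8 groups it read 20.5 to 22.3 FPKM. The calls on ATP8 (-1.80 at day 5, adjusted p = 0.0342, and -1.86 at filter day 11, adjusted p = 0.0148; limma) and on COX7C (-1.19 and -1.21) therefore lean on these libraries. Both are very short messengers, and the part of fragment length or library preparation in this pattern was not tested. The 4 libraries were picked after their values were seen. Without them the tested members called at day 5 numbered 14 of 57 in place of 28, with 1 day 5 library left, and at filter day 11 15 in place of 27, also with 1 library left.

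**Figure D3:**
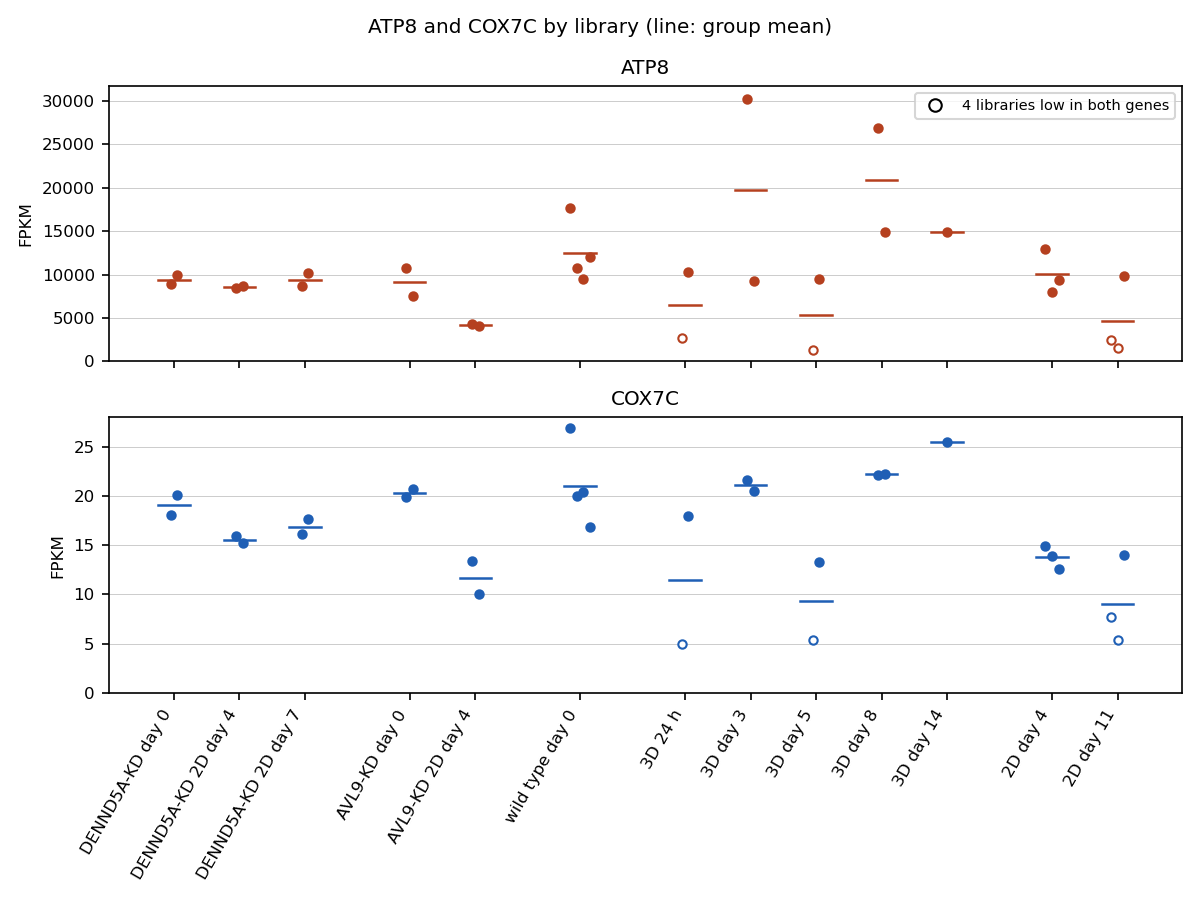
FPKM of ATP8 and COX7C in each library, by group, with open points for the 4 libraries that are low in both. Their lowest wild type values, 1288 FPKM for ATP8 and 4.99 FPKM for COX7C, fall in the 3D day 5 and 3D 24 h groups.

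Complex I, the entry point for NADH, held most of the nuclear members that rose in 3D, but it also supplies 24 of the 45 tested. Of the 6 nuclear members of complex V, 4, 3 and 3 rose and 0, 1 and 2 fell at days 3, 5 and 8, so the rise was not particular to complex I. Of its 24 tested nuclear genes 16 rose and none fell at day 3, 13 rose and none fell at day 5, and 11 rose and 2 fell at day 8. The 18 accessory subunits, which surround the catalytic core, had 14, 12 and 11 members higher and none lower at days 3, 5 and 8, with median log2 differences of 0.63, 0.56 and 0.43. The 6 core subunits, which carry the flavin and the iron-sulfur clusters, had 2, 1 and 0 higher and 0, 0 and 2 lower, with medians of 0.29, 0.11 and -0.05. This split was made after the values were seen and has no test.

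NDUFA2 and NDUFB3, both accessory subunits, show the rise library by library. NDUFA2 had 21.0, 33.7, 27.7 and 24.9 FPKM at day 0, 28.6 and 38.2 FPKM at 24 h, 52.1 and 82.7 FPKM at day 3, 86.2 and 52.5 FPKM at day 5, 44.9 and 67.7 FPKM at day 8 and 61.0 FPKM at day 14. NDUFB3 had 47.5, 44.1, 39.1 and 37.4 FPKM at day 0, 43.7 and 46.9 FPKM at 24 h, 72.1 and 92.9 FPKM at day 3, 102 and 65.1 FPKM at day 5, 75.4 and 82.8 FPKM at day 8 and 84.3 FPKM at day 14. For both genes every library from day 3 on lay above all libraries of day 0 and 24 h. NDUFA2 rose by 1.28, 1.31 and 1.03 and NDUFB3 by 0.95, 0.95 and 0.90 on the log2 scale at days 3, 5 and 8. NDUFB11, an accessory subunit of the membrane arm, rose by 1.01 (adjusted p = 8.03e-06), 0.81 and 0.68, and NDUFB6, of the same arm, by 1.01 at day 3 and 0.65 at day 8 (limma). The rise of NDUFA2 and NDUFB11 was not confined to 3D, as both were also higher than at day 0 on filter day 11 (0.65 and 0.30). At day 8, 2 core subunits fell, NDUFS1, which carries iron-sulfur clusters, by 0.49 and NDUFV1, which binds the flavin, by 0.42.

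The 3 measured subunits of complex II, which also belongs to the citric acid cycle, parted. SDHC, a membrane anchor, had 59.0, 46.3, 45.7 and 39.7 FPKM at day 0, 97.1 and 99.8 FPKM at day 3, 113 and 62.5 FPKM at day 5, and 92.2 and 67.1 FPKM at day 8. SDHA, the flavoprotein that oxidises succinate, had 59.3, 64.0, 64.7 and 56.2 FPKM at day 0, 55.0 and 64.9 FPKM at day 3, 52.5 and 54.5 FPKM at day 5, and 41.7 and 38.4 FPKM at day 8. All 3D libraries of these days lay above day 0 for SDHC, and both day 8 libraries lay below it for SDHA. SDHC rose by 1.05 at day 3, 0.82 at day 5 and 0.73 at day 8, and SDHA fell by 0.59 at day 8 (adjusted p = 4.55e-05; limma). SDHC lost its call at day 5 without replicate 2 (0.40, adjusted p = 0.127) and at day 8 without replicate 1 (0.50, adjusted p = 0.093). SDHB, the iron-sulfur subunit, passed none of the 3D comparisons with day 0.

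In complex III, UQCRC1, a core protein that faces the matrix, went down with time. It had 63.9, 73.4, 67.1 and 62.2 FPKM at day 0, 79.6 and 83.1 FPKM at 24 h, 51.5 and 57.4 FPKM at day 3, 46.9 and 41.0 FPKM at day 5, 35.7 and 31.5 FPKM at day 8 and 38.3 FPKM at day 14. All libraries from day 3 on lay below day 0. The log2 difference was -0.29 at day 3 (adjusted p = 0.0457), -0.59 at day 5 (adjusted p = 0.000225) and -0.97 ± 0.12 (SE) at day 8 (adjusted p = 6.06e-07; limma), and the day 3 call was lost without the 5 libraries (-0.23, adjusted p = 0.286). UQCRQ, a small subunit, rose by 0.80, 0.55 and 0.54 on the same days, with overlapping groups at day 5. UQCRB, another small subunit, had 168 and 172 FPKM at day 8, below its 221 to 264 FPKM at day 0, and fell by 0.51 (adjusted p = 0.0134; limma).

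Of the 6 nuclear complex IV genes, 3 rose at day 3, 2 rose and 1 (COX7C) fell at day 5, and none passed at day 8. COX4I1, the regulatory subunit, had 223 and 242 FPKM at day 3 and 116 to 165 FPKM at day 0, and rose by 0.71. COX5B, which binds zinc, rose by 0.81 at day 3 and 0.58 at day 5, and COX7A2 by 0.69 at day 3 with overlapping groups. For complex V, 2 subunits of the peripheral stalk rose on all 3 days, ATP5J by 0.80, 0.50 and 0.64 and ATP5F1 by 0.71, 0.53 and 0.57, their groups overlapping at day 5. ATP5D, of the central stalk, fell by 0.42 at day 8. ATP5S rose by 0.78, 0.80 and 1.01 in 3D, and ATP5SL fell by 0.51 and 0.53 at days 5 and 8.

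**Figure D4:**
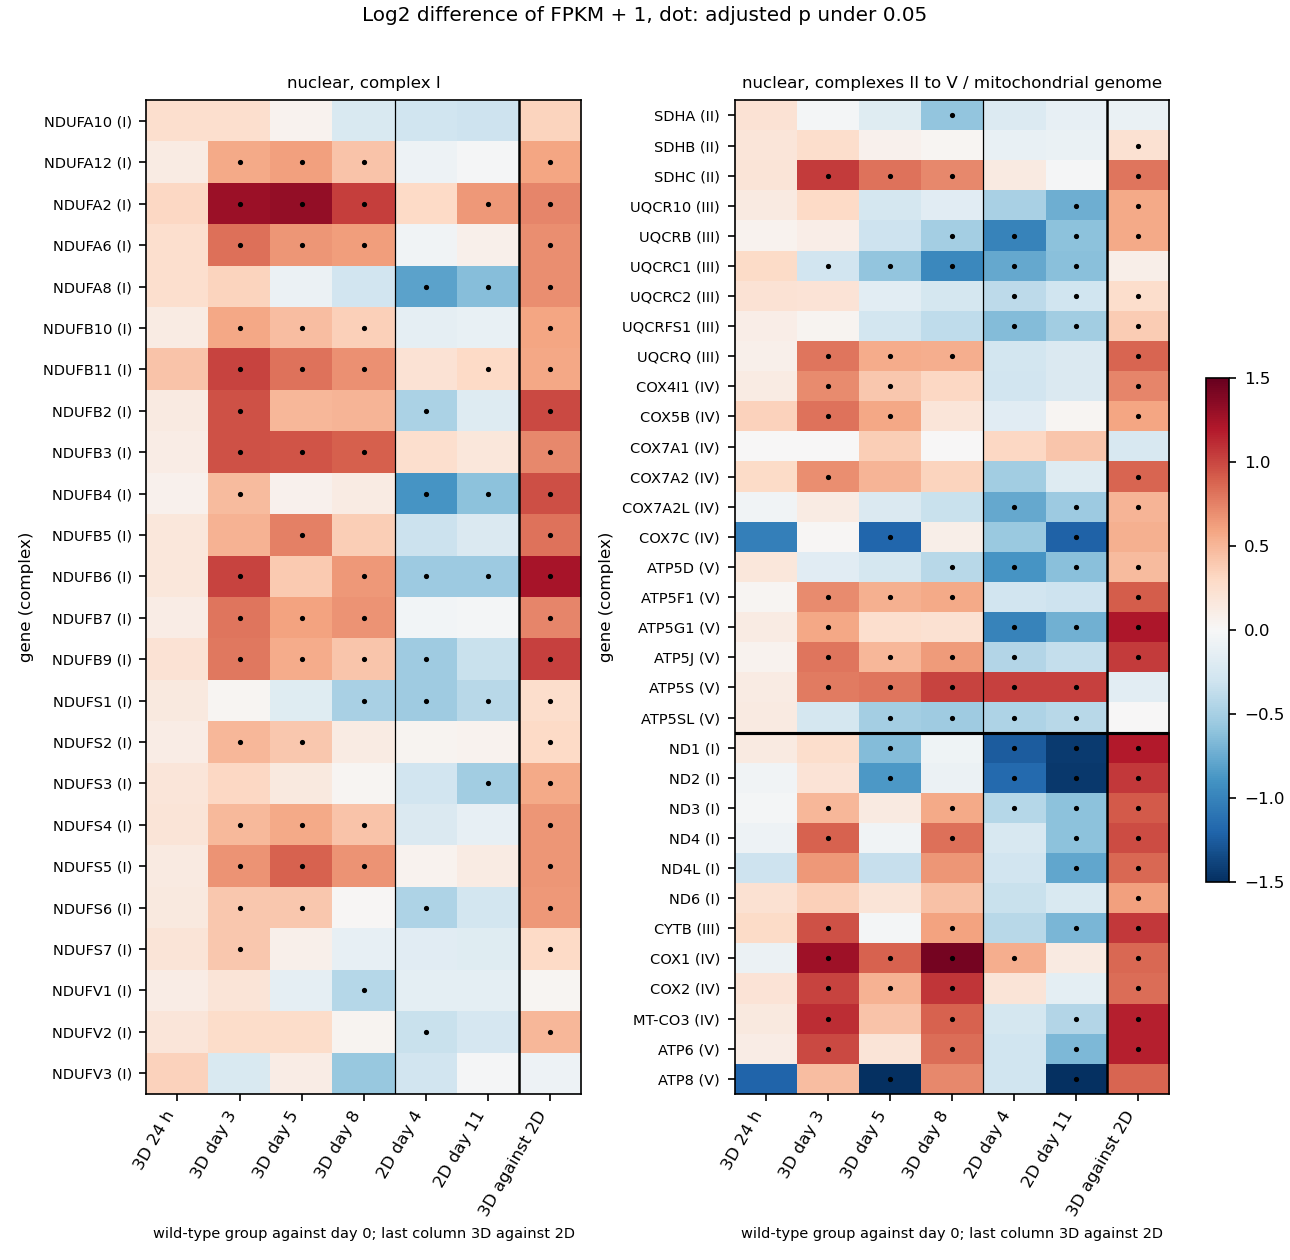
Log2 difference from day 0 of the 57 tested members in 6 wild type groups (24 h, days 3, 5 and 8 in 3D, days 4 and 11 on filters) and between 3D and 2D culture, with colours ending at 1.5 and a dot where the adjusted p is under 0.05. At day 3, 17 of 18 accessory complex I genes lie above 0, and at day 8, 15 of 18. COX1, COX2 and MT-CO3 lie above 0 on both days, though with quantile normalization COX2 and MT-CO3 do not at day 8 nor COX2 at day 3, and the 24 h column has no dot.

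On filters the direction was mostly down. At day 4 of 2D culture 1 nuclear member was higher and 17 were lower than at day 0, with a median log2 difference of -0.29, where 30.3% of all genes rose, 29.6% fell and the median was 0.00. Of the mitochondrial genes 1 (COX1) rose and 3 (ND1, ND2 and ND3) fell. At day 11, 3 nuclear members were higher and 15 lower, with a median of -0.22, and 9 of the 12 mitochondrial genes were lower, with a median of -0.64, where 32.2% of all genes rose and 23.7% fell. Without replicate 3 of filter day 4, 11 nuclear members were lower there. The 9 lower mitochondrial genes at day 11 became 5 without replicate 1 and 4 without replicate 2 of that group. With quantile normalization the nuclear counts at day 4 were 6 higher and 13 lower, and the mitochondrial counts at day 11 were 2 higher and 5 lower.

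On filters, 4 of the 6 nuclear members of complex III were lower at day 4 and 5 at day 11. Of the 6 of complex V, 4 were lower at day 4 and 3 at day 11. Among all genes, 29.6% and 23.7% were lower on these days. UQCRB had 145, 134 and 92.1 FPKM at filter day 4 and 168, 159 and 148 FPKM at day 11, below its day 0 libraries, and fell by 1.00 and 0.62. UQCRC1 had 38.3, 42.8 and 35.3 FPKM at day 4 and 42.9, 45.3 and 39.8 FPKM at day 11, and fell by 0.77 (adjusted p = 2.38e-06) and 0.63 (limma). The Rieske protein UQCRFS1 fell by 0.65 and 0.53. UQCR10 fell by 0.73 at day 11.

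In complex V, ATP5G1, which encodes the c subunit of the rotor ring, had 26.0, 27.5 and 21.5 FPKM at filter day 4 and 32.8, 31.0 and 28.0 FPKM at day 11, and 54.8, 55.3, 52.7 and 42.4 FPKM at day 0. The groups did not overlap, and it fell by 1.01 and 0.72. ATP5D fell by 0.88 and 0.63. ATP5S was the nuclear member that rose on both days, by 1.03 each time, with 14.6, 19.3 and 17.6 FPKM at day 4 and 6.67 to 9.36 FPKM at day 0. Of the 24 tested nuclear genes of complex I, 8 fell and none rose at day 4, where 29.6% of all genes fell and 30.3% rose. At day 11, 5 fell and 2 rose (NDUFA2 by 0.65 and NDUFB11 by 0.30), where 23.7% of all genes fell and 32.2% rose. The complex I falls thus lay near the shares of all genes. NDUFB4 fell by 0.88 and 0.61 and NDUFA8 by 0.80 and 0.64, both accessory subunits. COX7A2L, which bridges complexes III and IV in supercomplexes, fell by 0.77 and 0.54. None of the complex II genes passed at either day.

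COX1 was the exception among the mitochondrial genes at filter day 4, with 10694, 8548 and 9017 FPKM, above all 4 day 0 libraries (log2 difference 0.55, adjusted p = 0.0257; limma). The call was lost without the 5 libraries (0.48, adjusted p = 0.105). At filter day 11 COX1 read 6542, 6428 and 8288 FPKM, overlapping day 0, and it did not pass. Between filter days 11 and 4, no member passed, where 2.08% of all genes did. An unadjusted p under 0.05 was reached by 2 of 57 members and by 1808 of all 11774 genes.

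Set against each other, 3D cultures of days 3, 5 and 8 had higher levels than filter cultures of days 4 and 11 for 36 of the 45 nuclear members and 11 of the 12 mitochondrial genes, and lower levels for none. Of all genes 22.1% were higher and 34.8% lower. The median log2 difference was 0.59 for the nuclear members, 0.95 for the mitochondrial genes and -0.08 for all genes. The days, the substrate and the shape of the culture differ together between these groups and cannot be told apart. With quantile normalization the nuclear count was 38 higher and none lower, and the mitochondrial count 5 higher and 1 lower, the last being COX2 (log2 difference -0.39).

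By complex, 21 of 24 nuclear genes of complex I, 2 of 3 of complex II, 5 of 6 of complex III, 4 of 6 of complex IV and 4 of 6 of complex V were higher in 3D. NDUFB6 had 112 and 117 FPKM at day 3, 109 and 50.4 FPKM at day 5 and 101 and 78.0 FPKM at day 8, against 45.7, 39.0 and 31.0 FPKM at filter day 4 and 34.7, 42.2 and 38.1 FPKM at filter day 11. Every 3D library was above every filter library, and the log2 difference was 1.23 (adjusted p = 3.86e-06; limma). ATP5G1 differed by 1.22, ATP5J by 1.05 and NDUFB9, an accessory complex I subunit, by 1.03, also without overlap. Of the mitochondrial genes, ND1 differed by 1.19 (adjusted p = 5.53e-07) and MT-CO3 by 1.17, without overlap, and ATP6 by 1.16 with overlap (limma). SDHB differed by 0.23 (adjusted p = 0.0429; limma), with overlap, and its call was lost under most omissions of a single library.

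The members that did not pass between 3D and 2D were SDHA (log2 difference -0.11), UQCRC1 (0.08), NDUFV1 (0.02), NDUFA10, NDUFV3, COX7A1, COX7C (0.53), ATP5S (-0.16) and ATP5SL (0.00), and ATP8 (0.87, adjusted p = 0.119; limma) among the mitochondrial genes. A missed threshold does not show that the levels were equal.

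The single 3D library of day 14 allows no test and belongs to the 5 that stood apart. Its median log2 difference from day 0 was 0.05 over the 12 mitochondrial genes and 0.24 over the 45 nuclear genes, and -0.02 over all genes. Relative to day 8, none of the 12 mitochondrial genes was higher (median -0.80), while 29 of the 45 nuclear genes were (median 0.09), as were 8440 of all 11774 tested genes (median 0.14).

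The knockdown lines were compared with wild type cells at the same stage. Mean log2(FPKM + 1) over the mitochondrial genes was 11.63 ± 0.03 in AVL9-KD and 11.20 ± 0.13 in DENND5A-KD cells at day 0, against 11.50 ± 0.20 in wild type cells, and 10.85 ± 0.03 and 11.01 ± 0.13 at filter day 4, against 11.15 ± 0.17 (SD). Over the nuclear genes it was 5.48 ± 0.04 in AVL9-KD and 5.20 ± 0.10 in DENND5A-KD cells at day 0, against 5.26 ± 0.11, and 5.16 ± 0.10 and 4.93 ± 0.10 at filter day 4, against 4.96 ± 0.13. At filter day 7 the DENND5A-KD means were 11.08 ± 0.10 and 4.96 ± 0.02. The gap between the sets was 5.69 ± 0.07 in AVL9-KD cells at filter day 4, against 6.19 ± 0.21 in wild type cells, a difference of -0.50 that was -0.084 with quantile normalization. The other knockdown gaps lay between 6.00 and 6.14, with 6.12 at DENND5A-KD filter day 7. At day 0, DENND5A-KD cells differed in 1 of 57 members, where 3.27% of all genes rose and 2.25% fell. That member was ND3, with 2059 and 2332 FPKM in DENND5A-KD cells, against 4248, 3656, 3267 and 3134 FPKM in wild type cells, without overlap (log2 difference -0.70, adjusted p = 0.0454; limma). Leaving out any library but wild type replicate 4 ended that call. At filter day 4 none of the 57 members passed, where 11.3% of all genes did. An unadjusted p under 0.05 was reached by 3 members and by 2766 of all 11774 genes. The median log2 differences at filter day 4 were -0.14 for mitochondrial and -0.02 for nuclear members.

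In AVL9-KD cells, 7 of 45 nuclear members rose at day 0 and 5 at filter day 4, none fell, and no mitochondrial gene passed at either stage. Of all genes 13.4% rose and 4.59% fell at day 0, and 18.7% rose and 2.34% fell at filter day 4, so the members' counts lay near the background, and the medians of all genes were themselves 0.11 and 0.19. The nuclear medians were 0.21 and 0.22. Scaling by the median ratio to a common level left 4 nuclear members higher and 1 lower at day 0 and none either way at filter day 4, where 3 mitochondrial genes were then lower. With the groups of each comparison fitted alone, no member passed at either stage. The day 0 count fell to 2 without AVL9-KD line 1, AVL9-KD line 4 or wild type replicate 4, and the filter day 4 count fell to 0 without AVL9-KD line 1 and to 1 without wild type replicate 3. The AVL9-KD libraries were uneven in relative depth, at 0.727 for line 1 and 1.67 for line 4 at day 0 and at 1.65 for line 1 and 0.536 for line 4 at filter day 4, and the part of depth in these calls was not tested.

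NDUFS7, a core complex I subunit with an iron-sulfur cluster, had 57.5 and 57.8 FPKM in AVL9-KD cells at day 0, against 44.3, 41.1, 42.4 and 35.4 FPKM in wild type cells, and 51.8 and 42.8 FPKM at filter day 4, against 37.2, 37.0 and 33.8 FPKM. The groups did not overlap at either stage, and the log2 differences were 0.49 (adjusted p = 0.0015) and 0.38 (adjusted p = 0.0117; limma). SDHB had 55.1 and 56.2 FPKM in AVL9-KD cells at day 0, against 32.6 to 46.4 FPKM in wild type cells, and 61.4 and 47.5 FPKM at filter day 4, against 31.5 to 42.1 FPKM (log2 0.46 and 0.54). COX5B had 277 and 248 FPKM in AVL9-KD cells at day 0, against 145 to 206 FPKM, and differed by 0.54 and 0.57. UQCRC2, the second core protein of complex III, differed by 0.40 at both stages. At day 0, ATP5S (0.76), NDUFA2 (0.75) and UQCRFS1 (0.50) also passed, and at filter day 4 NDUFB7 (0.58), an accessory complex I subunit.

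**Figure D5:**
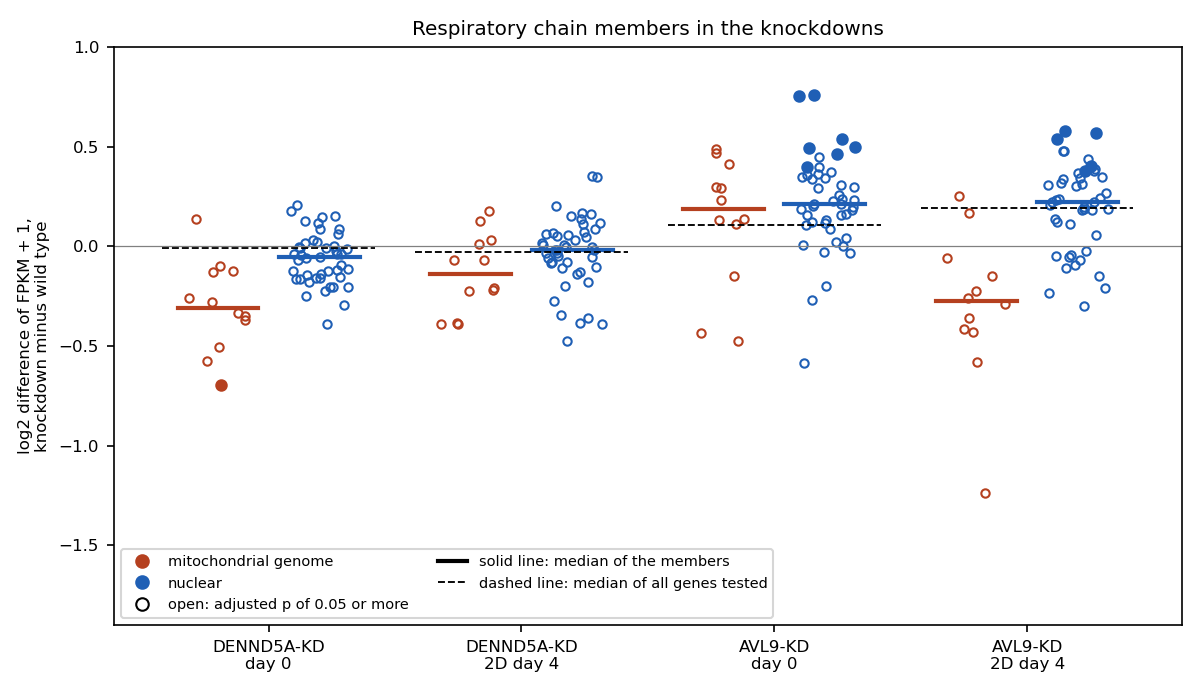
Log2 difference from wild type of each tested member in AVL9-KD and DENND5A-KD cells, at day 0 and at filter day 4, with filled points where the adjusted p is under 0.05, a solid line at the members' median and a dashed line at the median of all genes. The filled points are 1 at day 0 in DENND5A-KD cells and 7 and 5 at the 2 stages in AVL9-KD cells.

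Nuclear members also fell on filters within each knockdown. Relative to its own day 0, AVL9-KD had 1 nuclear member higher and 17 lower at filter day 4 and 5 mitochondrial genes lower, where 31.1% of all genes rose and 22.8% fell. DENND5A-KD had 14 of 45 nuclear members and 2 of 12 mitochondrial genes lower and none higher, where 20.1% of all genes rose and 22.2% fell. The mitochondrial count there did not exceed the share of all genes, and the mitochondrial median was -0.09. ND1 had 957 and 915 FPKM at filter day 4 in AVL9-KD cells, against 3445 and 3484 FPKM at their day 0, and 1021 and 1065 FPKM in DENND5A-KD cells, against 1878 and 2266 FPKM (log2 -1.89, adjusted p = 1.64e-06, and -0.98, adjusted p = 0.0023; limma). ND2 fell by 1.59 and 0.85. The test of whether this fall differed from that in wild type cells found no member in either knockdown. It found 1.83% of all genes for DENND5A-KD and 1.22% for AVL9-KD. At an unadjusted p under 0.05 there was 1 member each, where 1533 and 1349 of all 11774 genes reached it. The DENND5A-KD count of 14 nuclear genes fell to 3 without day 0 line 2 and to 5 without filter day 4 line 1, and the AVL9-KD count of 17 to 10 without filter day 4 line 4. Between filter days 7 and 4 in DENND5A-KD cells no member passed, and 0.051% of all genes did. No member had an unadjusted p under 0.05, where 741 of all 11774 genes did.

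Genes that build, supply or replace the chain were read from lists of 40 assembly factors, 33 genes of mitochondrial transcription, translation and their regulation, 24 of the citric acid cycle and pyruvate dehydrogenase, 24 electron carriers and ubiquinone makers, 29 of protein import and mitochondrial mass, and 15 of glycolysis. At day 8 in 3D, 10 assembly factors rose and 14 fell, and 3 of the gene expression list rose and 14 fell, where 24.7% of all genes rose and 38% fell. At filter day 4, 5 assembly factors rose and 20 fell, 1 gene expression gene rose and 18 fell, and 1 import gene rose and 20 fell, where 30.3% of all genes rose and 29.6% fell. Between 3D and 2D culture, 21 assembly factors were higher and 1 lower, 19 gene expression genes higher and 3 lower, and none of the glycolysis genes higher and 12 lower, where 22.1% of all genes were higher and 34.8% lower.

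Of the 24 electron carriers and ubiquinone makers, 10 rose and 5 fell at day 3 in 3D, where 28% of all genes rose and 23.1% fell. At day 5, 9 rose and 6 fell (all genes 26.4% and 31.2%), and at day 8, 7 rose and 8 fell (24.7% and 38%). Between 3D and 2D culture 18 were higher and 2 lower (22.1% and 34.8%). The carriers CYCS and ETFB moved in opposite directions. CYCS, cytochrome c, averaged 97.9 FPKM at day 3, 56.3 FPKM at day 5 and 67.1 FPKM at day 8 in 3D and 47.4 and 54.7 FPKM on filters, against 227 FPKM at day 0, and fell by 1.17, 1.96, 1.71, 2.21 and 2.00 on the log2 scale. ETFB, which passes electrons from fatty acid oxidation to ubiquinone, averaged 37.6, 48.8 and 42.9 FPKM at days 3, 5 and 8, against 11.3 FPKM at day 0, and rose by 1.66, 2.01 and 1.84. CS, citrate synthase, averaged 42.5, 36.2 and 28.1 FPKM, against 91.0 FPKM, and fell by 1.08, 1.30 and 1.66. In its list of 24 genes 8 rose and 7 fell at day 3, beside 28% and 23.1% of all genes. Among the higher ones was IDH3G, an isocitrate dehydrogenase subunit (1.09). TOMM40, the import channel of the outer membrane, averaged 16.8, 14.6 and 13.7 FPKM, against 53.8 FPKM, and fell by 1.60, 1.80 and 1.88. In its list of 29 genes 4 rose and 9 fell at day 3, beside the same shares of all genes, and FIS1, a mitochondrial fission protein, rose by 1.43. HK2, a hexokinase of glycolysis, averaged 3.63 FPKM at day 3, against 24.3 FPKM at day 0, and fell by 2.43. In its list of 15 genes 3 rose and 6 fell at day 3. These moves were not confined to 3D. On filters at days 4 and 11, ETFB averaged 31.3 and 26.1 FPKM and CS 44.8 and 52.2 FPKM. TOMM40 averaged 14.4 and 17.2 FPKM there, and HK2 6.82 and 6.91 FPKM, each on the same side of day 0 as in 3D.

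Regulators and assembly factors were mixed too. LRPPRC, which stabilises mitochondrial messengers, fell by 0.92 at day 5, 1.27 at day 8 and 1.04 and 0.90 on filters. Of the 40 assembly factors 11 rose and 6 fell at day 3, where 28% of all genes rose and 23.1% fell, so the rises lay near that share. Among the higher ones SURF1, a complex IV assembly factor, rose by 0.95, and NDUFAF3, a complex I assembly factor, by 1.14. COX10, which makes the heme of complex IV, fell by 0.72, 1.11 and 1.23 at days 3, 5 and 8. PPARGC1A, a coactivator of mitochondrial biogenesis, averaged at most 0.13 FPKM in any group, and TFAM, which packs the mitochondrial genome, averaged 15.0 to 22.9 FPKM. GPD2, a glycerol phosphate dehydrogenase that feeds electrons to ubiquinone, rose in both knockdowns: it averaged 48.5 FPKM in AVL9-KD cells and 33.7 FPKM in DENND5A-KD cells at day 0, against 16.2 FPKM in wild type cells (log2 1.54 and 1.02). In its list of 24 genes, 4 were higher in AVL9-KD and 1 in DENND5A-KD cells at day 0, beside 13.4% and 3.27% of all genes.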

How the data were processed

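RNA was extracted with AllPrep DNA/RNA kits and libraries were made with a KAPA stranded mRNA kit, per the labels' protocols. The submitters' processing notes name HISAT2 2.1.0, Cufflinks 2.2.1 and the builds canFam3 and CanFam3.1, with no role given, so no coordinates are printed. The authors deposited 1 table of FPKM values per sample. Read counts were not used here, so depth is unknown and is given only as a ratio, from the spacing of FPKM values under 0.15. Replicates were compared, and none of the pairs of libraries held identical values.

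Values were tested as log2(FPKM + 1) with limma 3.58.1 in R 4.3.3 (1 mean per group, all 29 libraries, mean-variance trend), over the 11774 genes that reached 1 FPKM in 2 or more libraries, in 17 comparisons. Fold changes are on that scale, which understates changes of low genes. Calls have a Benjamini-Hochberg adjusted p under 0.05 over all tested genes, and errors of fold changes are SE. Other steps used Python 3.11.15 with pandas 2.3.3 and matplotlib 3.10.9. The members and lists were chosen with earlier results of these data known. Named were all mitochondrial and SDH genes, tissue versions with their partners, per comparison and direction the 4 nuclear members with the largest called change (at least 5 FPKM, no overlap), and the list genes with the smallest p. Genes named outside that rule, such as COX4I1, UQCRQ, HK2 or TFAM, were picked after their values were seen.

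On simulated data with 200 of 11774 genes changed, limma recovered 13.4% to 74.6% of those changed by 0.5 on the log2 scale. It recovered 74.6% to 91% at 1 and 92.4% to 100% at 2, depending on the comparison, and called 2 to 11 unchanged genes. The simulated noise was independent between libraries. In the wild type comparisons with day 0 from day 3 on, 6009 to 7389 genes were called, so these rates do not carry over to them. Alternatives were a pseudocount of 0.1, no filter, quantile and median-ratio scaling, scaling on genes outside the mitochondrial genome, a replicate block, fits on the compared groups alone, a batch term for the 5 libraries, fits without them, and leaving out each library. Knockdown line numbers mark the same line across stages, so they pair the samples. The correlation of same-line deviations was 0.36 for AVL9-KD and 0.01 to 0.10 for DENND5A-KD. Wild type replicate numbers are not stated to pair samples. Their same-number libraries had correlations of -0.16 to 0.56 over 41 pairs, 19 of them over 0.1. Libraries with different numbers had -0.54 to 0.32 over 96 pairs, 14 of them over 0.1. Between the replicate 1 libraries of day 0, 3D days 3 and 8 and filter day 4, which stood apart in depth, they were 0.40 to 0.56. The cause was not tested.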

Additional observations from a re-analysis of the deposited data

Results flagged for a closer look

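In the day 0 group of 4 wild type libraries, 4 members had 1 library far from the rest by Dixon's criterion, which chance meets in about 1 in 20 groups. With 57 tested members, a few such cases can arise by chance, and genes low in the same library are not separate flags. Replicate 3 was the lowest for COX1 (5269 FPKM), MT-CO3 (5058 FPKM) and ND4 (2209 FPKM). Replicate 4 was the lowest for ATP5J (137 FPKM). Replicate 3 is not among the libraries of low depth. The COX1 call at filter day 4 was lost without it (log2 difference 0.45, adjusted p = 0.082; limma), and that of COX2 at 3D day 5 too (0.43, adjusted p = 0.110; limma).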

How the results depend on the processing

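The number of tested members called (of 57) was within 1.5 times its main value except as follows. At 3D day 5, 28 became 10 with the groups fitted alone and 14 without the 4 libraries low in ATP8 and COX7C, and at filter day 11, 27 became 15 without those 4 libraries. Between filter days 11 and 4, 0 became 1 with quantile normalization and 1 with scaling on genes outside the mitochondrial genome. For DENND5A-KD at day 0, 1 became 0 with the groups alone, with no filter, with the pseudocount of 0.1 and without the 5 libraries. For DENND5A-KD at filter day 4, 0 became 1 with the batch term, 1 with median-ratio scaling, 3 with quantile normalization and 1 with scaling on genes outside the mitochondrial genome. For AVL9-KD at day 0, 7 became 0 with the groups alone and 4 with quantile normalization. At filter day 4, 5 became 0 with the groups alone and 3 with each of the other 3 scalings. AVL9-KD at filter day 4 against its day 0 had 15 with the groups alone in place of 23. The cause of these shifts was not tested.

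The 106 named calls kept their side of the threshold in 825 cases across these alternatives, lost it in 147 and changed sign in 10, all with quantile normalization: at 3D day 3, ND3 (-0.30), COX2 (-0.21) and ATP6 (-0.25); at day 8, CYTB (-0.0098), COX2 (-0.069), MT-CO3 (-0.0901) and ATP6 (-0.34); between 3D and 2D, COX1 (-0.0852) and COX2 (-0.39, adjusted p = 0.00143; limma); and in AVL9-KD at filter day 4 against its day 0, MT-CO3 (0.0856). These are log2 differences, and the cause was not tested. The largest losses came with the groups fitted alone (33 calls), no filter (31) and quantile normalization (27). The replicate block changed none of the 106 calls, and its counts lay within 1.5 times the main ones. Leaving out 1 library kept 602 calls and lost 125.

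The mitochondrial minus nuclear difference from day 0 was 0.26 at 3D day 3, and -0.50 with quantile normalization and -0.16 without the 5 libraries. With quantile normalization it was -0.33 at day 8, -0.14 between filter days 11 and 4, -0.0339 for DENND5A-KD at day 0, -0.0842 for AVL9-KD at filter day 4, and -0.0885 and -0.27 for DENND5A-KD and AVL9-KD at filter day 4 against their own day 0.

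Over the libraries left out in turn, the members called ranged from 0 to 1 at 24 h, 26 to 33 at day 3, 13 to 30 at day 5, 19 to 29 at day 8, 15 to 26 at filter day 4, 19 to 26 at filter day 11, 0 to 1 between filter days, 44 to 48 between 3D and 2D, 0 to 1 for DENND5A-KD at both stages, 2 to 7 and 0 to 7 for AVL9-KD at day 0 and filter day 4, 4 to 15 and 13 to 19 for DENND5A-KD and AVL9-KD against their own day 0, and 0 to 1 for the DENND5A-KD difference of differences. The mitochondrial minus nuclear difference ranged from -0.20 to 0.73 at day 3 and from -1.04 to 0.30 at day 5, crossing 0 in both. The unknown number of reads limits what the low members, such as COX7A1, can show.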
